A study of Arabidopsis thaliana with 4 samples.

Results

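Expansins and xyloglucan endotransglucosylase/hydrolases (XTHs) were followed in Arabidopsis thaliana seedlings after induction of LEAFY COTYLEDON1 (LEC1), which controls embryo development as a subunit of a CCAAT-binding factor. Members were the probe sets annotated to 1 gene whose symbol starts with EXPA (alpha-expansin), EXPB (beta-expansin), EXLA or EXLB (expansin-like) or XTH, followed by a number. This gave 27 probe sets for 27 genes, among 22746 probe sets that are not array controls, of which 13513 name 1 gene. Another 503 name several genes and 8730 name none, so a gene not found by symbol may still be on the arrays. They comprised 10 of 24 EXPA, 4 of 6 EXPB, 3 of 3 EXLA, 1 of 1 EXLB and 9 of 30 XTH symbols in the gene table.

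All seedlings were of ecotype Columbia, carried the pER8-LEC1 transgene and were collected whole after 4 days of treatment. The induced group grew on medium with 0.01 mM estradiol, and the control group grew on medium with 0.1% DMSO. The labels do not say whether the estradiol medium also held DMSO, so a difference in solvent cannot be told apart from induction. Each group had 2 biological replicates, so 4 Affymetrix ATH1 arrays were compared, hybridized after 2-cycle amplification of the RNA. pER8 is an estradiol-inducible vector that is not confined to a cell type, and the labels do not say how many transgenic lines were pooled. Estradiol without the transgene was not analysed here, so the effect of the hormone and that of LEC1 cannot be told apart.

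Expansins loosen the plant cell wall at acid pH without cutting its polymers, and alpha-expansins act in the walls of most growing organs. XTHs cut xyloglucan, the hemicellulose that coats cellulose microfibrils, and rejoin it to another chain or hydrolyse it. Both families are large, and many members are tied to a cell type: EXPA7 and EXPA18 are the expansins of root hairs, the tubular outgrowths of root epidermal cells. The expansin-like proteins share the fold, but wall loosening has not been assigned to them.

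Signals are given after quantile normalization, because the median deposited signal differed between arrays, being 20 and 15.5 in controls but 39.4 and 22.3 after induction. Each pair of values lists replicate 1 first, and group means are means of log2 signals turned back into signals. Across kept probe sets, which are no independent replicates, the Pearson correlation of log2 signals was 0.901 for the control pair, 0.893 for the induced pair and 0.681 to 0.768 for arrays of different groups. A signal under 13.9, the 40th percentile, is called dim. The labels could be checked only through 3 of 12 embryo markers (OLEO3, PAP85 and EEL), whose summed signal was 43.9 and 55.6 in the controls, compared with 11494 and 10771 after induction. LEC1 has no probe set naming it alone here, and the marker lists for leaf mesophyll, root endodermis, xylem, phloem and root cap had none either. Of 5 guard cell lineage markers 2 had one, with a summed signal of 26.4 and 42.9 in the controls, compared with 21.3 and 18.5 after induction. FMA was dim on all 4 arrays, and SPCH, at 17.6 and 33.7 against 11.3 and 11.9, was at least 1.75-fold lower and did not pass (limma adjusted p = 0.243). The part of such cells in the differences below was not tested. In whole seedlings, fewer cells of a type and less RNA per cell cannot be told apart.

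Of the 27 members, 21 passed the filter on dim probe sets and 6 did not. Among the 21, 0 changed between the groups (limma, Benjamini-Hochberg adjusted p under 0.05), where 5.74% of 14433 probe sets passed, 2.83% as higher and 2.91% as lower in induced seedlings. An unadjusted p under 0.05 was reached by 7 of the 21, against 26.5% of all probe sets. These were EXPA7, EXPA18, EXPA20, EXLA2, XTH20 and XTH32, lower in induced seedlings (13.9% of all probe sets), and EXPB1, higher (12.6%). The methods' t-test gave 0 members at a false discovery rate of 0.2, where 2.74% of all probe sets passed, and 2 members at an unadjusted p under 0.05, where 17.3% did. Leaving out LEC1 induced replicate 2 made it 6 members in limma, EXPA7, EXPA9, EXPA18, EXPA20 and XTH32 lower and EXLA1 higher, where 13.4% of all probe sets passed.

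The 2 groups did not overlap for 9 of the 21 members, against 58.3% of all probe sets. Of the 9, 8 were lower in induced seedlings (29% of all probe sets) and 1 was higher (29.3%). On the values as deposited 10 did not overlap (57.6% of all probe sets), with EXPA7, EXPA18, EXPA20 and XTH32 lower (11.1%) and EXPA4, EXPA8, EXPA15, EXPB1, EXPB3 and XTH26 higher (46.5%). The median log2 difference of the 21 was -0.28, against a median of 0.00 over all probe sets, and the middle 50% of members lay between -1.01 and 0.45. The median is tied to scaling and was 0.35 on the values as deposited, where the median of all probe sets was itself shifted by 0.62. By family, the median on quantile normalized values was -0.81 for the 14 expansins and expansin-like genes and 0.03 for the 7 XTHs. Of the 14, 8 were lower and 6 higher in induced seedlings, and of the 7 XTHs 3 were lower and 4 higher.

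**Figure D1:**
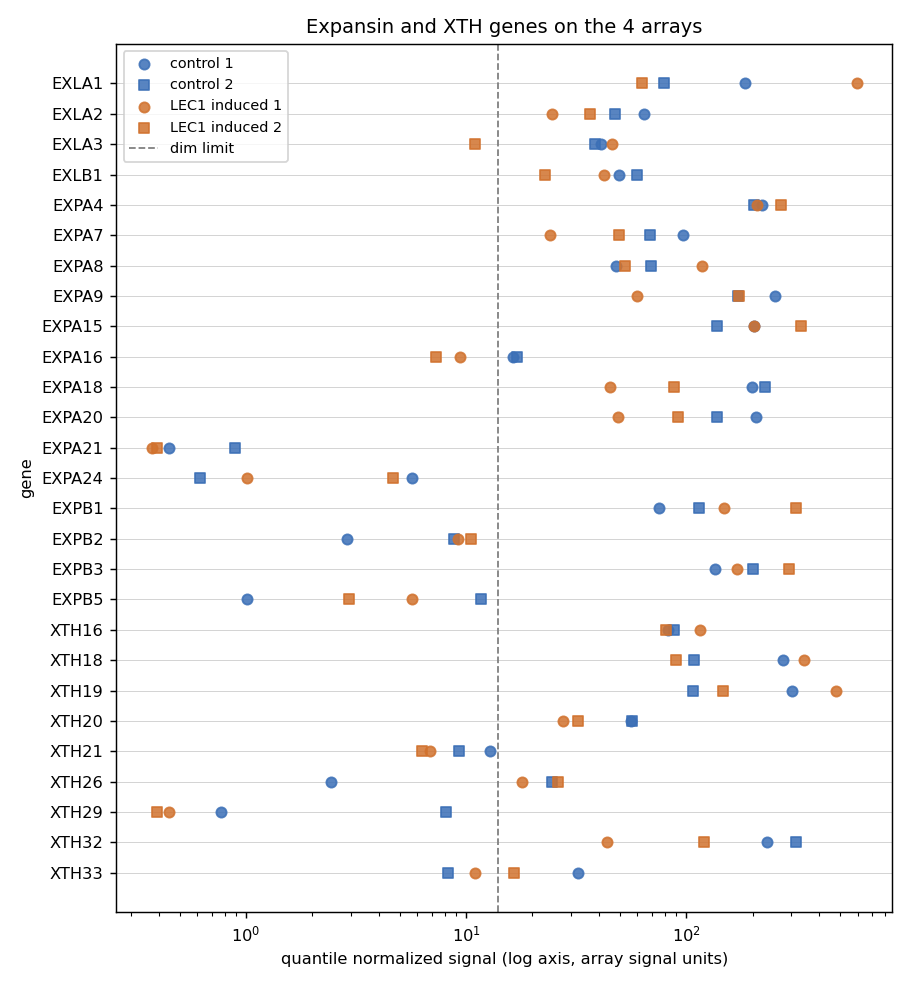
Quantile normalized signal (log axis) of the 27 genes on each of the 4 arrays, with controls in blue, LEC1 induced in orange, circles for replicate 1, squares for replicate 2, and the dim limit of 13.9 dashed. EXPA18 and XTH32 show both induced arrays clearly below both controls, whereas EXLA1, XTH18 and XTH19 separate by replicate rather than by group.

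The root hair expansins were lower on both induced arrays, but neither passed the threshold. EXPA18 (AT1G62980) had signals of 199.3 and 226.7 in the controls, compared with 45.2 and 88.1 after induction. Its groups did not overlap, and the mean went from 212.6 (log2 7.73 ± 0.13 SD, n = 2) to 63.1 (5.98 ± 0.68 SD, n = 2). The log2 difference was -1.75 ± 0.41 SE, a 3.37-fold lower signal, with a 95% interval of -2.73 to -0.77 (limma adjusted p = 0.0594). As deposited its signals were 203.4 and 164.7 against 78.2 and 81.2, and the difference was -1.20 (limma adjusted p = 0.197). Under median centring EXPA18 passed, at -1.95 (limma adjusted p = 0.0274), and it also passed with an offset of 16 (0.0447), with a robust prior (0.0498) and without LEC1 induced replicate 2 (0.00681). It did not pass without control replicate 1 (0.211), control replicate 2 (0.255) or LEC1 induced replicate 1 (0.0607).

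EXPA7 (AT1G12560) had signals of 96.3 and 68.3 in the controls, compared with 24.0 and 49.5 after induction. Again the groups did not overlap, but on this scale the induced arrays lay further apart than the controls. The log2 difference was -1.23 ± 0.44 SE, 2.35-fold lower, with an interval of -2.29 to -0.18 (limma adjusted p = 0.142). Within replicate 1 it was -2.0, and within replicate 2 it was -0.46. Without LEC1 induced replicate 2 it passed (limma adjusted p = 0.0303). Without LEC1 induced replicate 1 the difference was -0.71 (0.348), and with control replicate 1 or 2 left out it did not pass (0.421 or 0.285). As deposited its signals were 91 and 47.7 in the controls, compared with 41.6 and 47.0 after induction. On that scale the controls lay further apart than the induced arrays, and the replicate 2 arrays were nearly level.

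Few other genes could be set beside this pair. Of 9 listed root hair markers, EXPA7 and EXPA18 were the 2 with a probe set naming them alone, and their summed signal was 295.5 and 295 in the controls, compared with 69.2 and 137.6 after induction. Of 37 further root hair genes, 1 had such a probe set. It was SCN1 (AT3G07880), a RhoGDI that limits where on the cell a hair starts, with signals of 135 and 133.8 in the controls, compared with 346.9 and 284.8 after induction. SCN1 lay in the direction opposite to the 2 expansins, 2.34-fold higher, and did not pass (log2 difference 1.23 ± 0.30 SE, limma adjusted p = 0.0675). It passed without LEC1 induced replicate 2 (0.0333) and did not with any other array left out (0.0946 to 0.301). XTH26 (AT4G28850), an XTH described in root hairs, was close to the dim limit, with 2.44 and 24.6 in the controls, compared with 18.0 and 26.1 after induction. One control array was dim, and the groups overlapped (limma adjusted p = 0.422). Of 11 listed regulators of epidermal fate, JKD passed the filter, with 33.9 and 46.2 against 38.7 and 77.7 (limma adjusted p = 0.516), and its groups overlapped.

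Among the other alpha-expansins, EXPA20 (AT4G38210) had 207.6 and 138.5 in the controls, compared with 49.1 and 92.1 after induction. Its groups did not overlap, and it was 2.52-fold lower (log2 difference -1.33 ± 0.43 SE, limma adjusted p = 0.114). Its limma adjusted p was 0.0238 with LEC1 induced replicate 2 left out and 0.215 to 0.403 with any other array left out, where the difference was as small as -0.88. EXPA9 (AT5G02260) had 252.3 and 171.5 against 59.9 and 173.2. Its lower mean in induced seedlings thus rested on 1 array, and its log2 difference was -2.08 within replicate 1 and 0.01 within replicate 2. Taken over both it was -1.03 ± 0.54 SE (limma adjusted p = 0.278). It passed with LEC1 induced replicate 2 left out (0.0208) and did not with any other array left out (0.424 to 0.714).

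Of the alpha-expansins with a higher mean after induction, EXPA15 (AT2G03090) had signals of 203.7 and 138.5 in the controls, compared with 201.9 and 333.4 after induction, so the groups overlapped (log2 difference 0.63 ± 0.39 SE, limma adjusted p = 0.343). With 1 array left out the difference ranged from 0.27, without LEC1 induced replicate 2, to 0.99, without LEC1 induced replicate 1. EXPA8 (AT2G40610) had 47.7 and 69.4 against 117.7 and 52.7, overlapping as well. EXPA4 (AT2G39700) varied little between arrays, at 221 and 203.7 in the controls, compared with 208.6 and 269.5 after induction, and its interval of -0.58 to 0.90 leaves room for a small difference either way. EXPA16 (AT3G55500) was near the dim limit, with 16.3 and 17.0 in controls and 9.41 and 7.26, both dim, after induction. Only a bound of at least 1.20-fold lower can be given for it (limma adjusted p = 0.334).

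EXPB1 (AT2G20750), a beta-expansin, was the 1 member of the 21 that passed the filter whose groups did not overlap in the upward direction. It had 75.2 and 114.5 in the controls, compared with 148.7 and 314.5 after induction, and was 2.33-fold higher (log2 difference 1.22 ± 0.46 SE, interval 0.12 to 2.32, limma adjusted p = 0.157). Within replicate 1 it was 0.98 higher and within replicate 2 1.46 higher on the log2 scale. As deposited the groups also separated, at 69.4 and 82.0 against 231.9 and 272.6. Without LEC1 induced replicate 1 the difference was 1.76 and passed (limma adjusted p = 0.0273). It was 0.68 and did not pass (0.314) with LEC1 induced replicate 2 left out. With control replicate 1 or 2 left out it did not pass (0.494 or 0.302). EXPB3 (AT4G28250) was higher within both replicates, at 135.2 and 200.6 against 170.7 and 294.1, but its groups overlapped (limma adjusted p = 0.508).

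The expansin-like genes differed in which array stood apart. EXLA2 (AT4G38400) had 64.2 and 47.4 in the controls, compared with 24.5 and 36.5 after induction, which did not overlap (log2 difference -0.89 ± 0.36 SE, limma adjusted p = 0.185). EXLB1 (AT4G17030) had 49.6 and 60 against 42.5 and 22.9 and did not overlap either (-0.81 ± 0.40 SE, limma adjusted p = 0.253). On the deposited values both pairs of groups overlapped, and the differences were -0.18 and -0.08.

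EXLA3 (AT3G45960) had 40.9 and 38.3 in controls, 45.9 on induced replicate 1 and 11, dim, on induced replicate 2. Its neighbour on chromosome 3, EXLA1 (AT3G45970), with 0 protein-coding genes between them, had 183.8 and 78.8 in the controls, compared with 597.3 and 63.0 after induction. In the induced pair both genes were thus brighter on replicate 1, by 2.06 on the log2 scale for EXLA3 and 3.24 for EXLA1. Neither passed (limma adjusted p = 0.465 and 0.695). The log2 difference of EXLA1 was 2.31 without LEC1 induced replicate 2 (limma adjusted p = 0.0187). When LEC1 induced replicate 1 was left out instead, it was -0.93 (0.31).

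**Figure D2:**
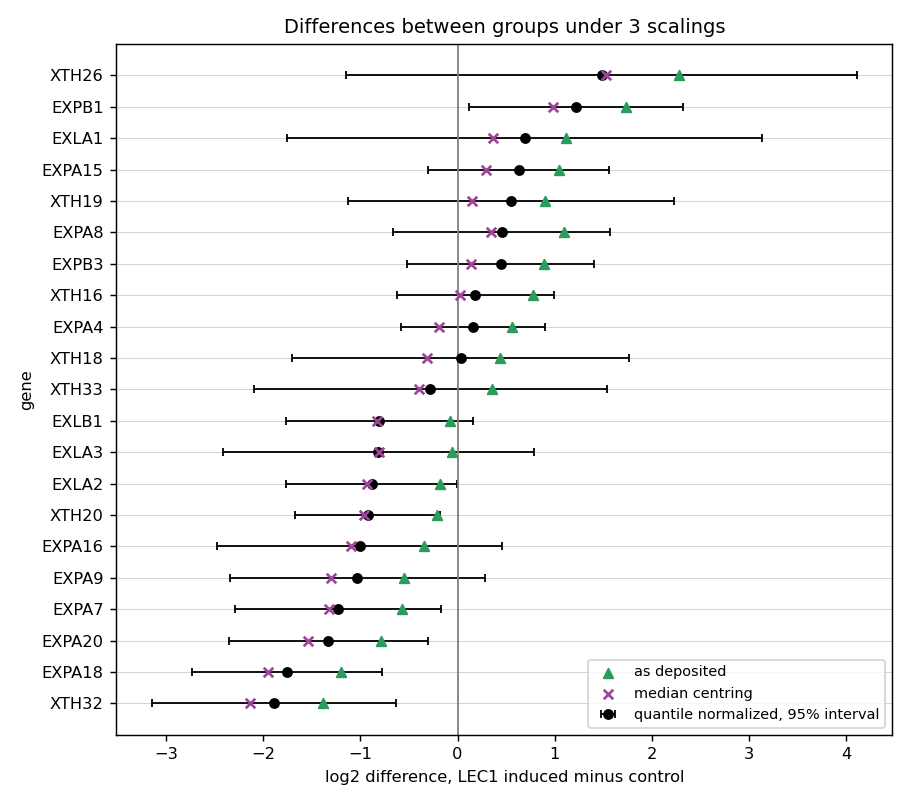
Log2 difference, LEC1 induced minus control, for the 21 members that passed the filter, with limma's 95% interval on quantile normalized values (black), and the same difference as deposited (green triangles) and after median centring (purple crosses). XTH32 at -1.89 and EXPA18 at -1.75 lie lowest, and green triangles sit to the right of the black points throughout.

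Of the 7 measured XTHs, XTH32 (AT2G36870) was the 1 whose mean signal was lower by more than 1 on the log2 scale. It belongs to the small subgroup of the family to which xyloglucan hydrolysis has been assigned. Its signals were 231.4 and 313.9 in the controls, compared with 43.7 and 120.5 after induction, which did not overlap. The mean went from 269.5 (log2 8.07 ± 0.31 SD, n = 2) to 72.5 (6.18 ± 1.04 SD, n = 2), 3.72-fold lower, with a log2 difference of -1.89 ± 0.52 SE and an interval of -3.15 to -0.64 (limma adjusted p = 0.0858). Under median centring it passed, at -2.13 (limma adjusted p = 0.0394), as it did without LEC1 induced replicate 2 (0.00391). Without LEC1 induced replicate 1 the difference was -1.16 (0.0844), and with control replicate 1 or 2 left out the limma adjusted p was 0.228 or 0.315. As deposited the signals were 239.6 and 232.4 against 75.6 and 108.6, again without overlap (limma adjusted p = 0.149).

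XTH20 (AT5G48070), one of a group of closely related XTHs expressed in roots, was lower by nearly the same amount in each replicate. It had 55.8 and 56.6 in the controls, compared with 27.4 and 32.1 after induction (log2 difference -0.92 ± 0.31 SE, limma adjusted p = 0.125). On the deposited scale the groups overlapped, at 50 and 39.4 against 47.4 and 31, with a difference of -0.21. XTH16 (AT3G23730) had 82.5 and 87.9 against 115.7 and 80.7, and XTH33 (AT1G10550), an XTH placed at the plasma membrane, had 32.2 and 8.24 against 11 and 16.4. Both overlapped, with limma adjusted p = 0.757 and 0.84.

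XTH18 and XTH19 belong to the same root-expressed group as XTH20 but did not follow it. XTH18 (AT4G30280) had 273.6 and 107.8 in the controls, compared with 342.1 and 90.1 after induction. XTH19 (AT4G30290), its direct neighbour on chromosome 4, had 303.6 and 107.6 in the controls, compared with 477.9 and 146.4 after induction. The replicate 1 arrays were the bright ones in both groups, and the groups overlapped. The log2 differences between groups, 0.03 ± 0.72 SE and 0.55 ± 0.70 SE, were smaller than the difference between replicates (limma adjusted p = 0.983 and 0.647). Since the 2 genes are close relatives, cross-hybridization between their probe sets was not tested.

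**Figure D3:**
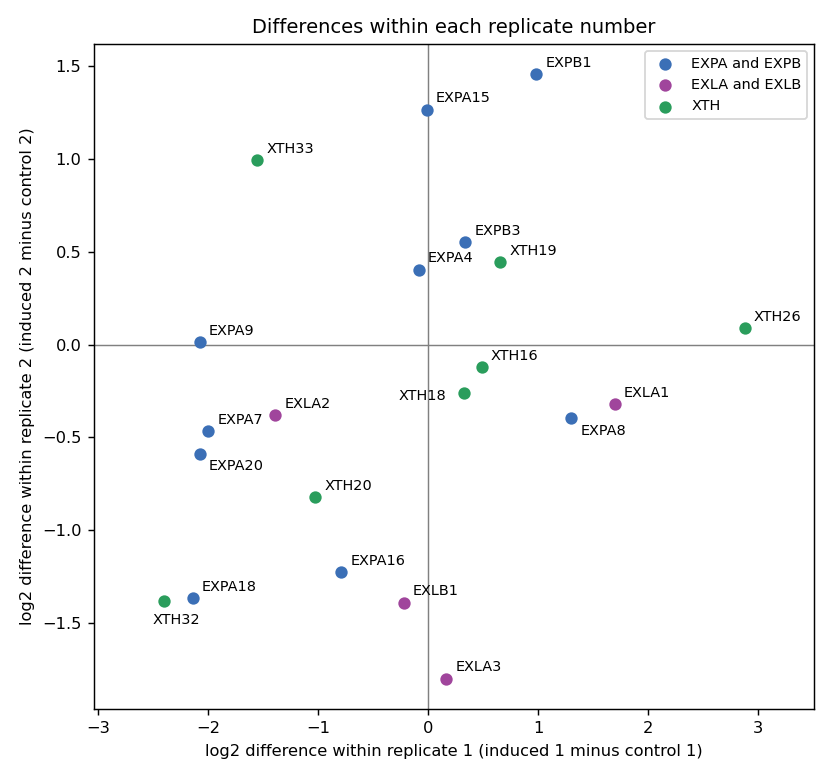
Log2 difference between the induced and the control array of replicate 1 (horizontal) and of replicate 2 (vertical) for the 21 members, coloured by family. XTH32, EXPA18, EXPA20, EXPA7 and XTH20 lie in the lower left, EXPB1 in the upper right, and EXPA9 is near 0 on the vertical axis.

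After quantile normalization the spread between replicates was wide for these genes. This depends on the scaling. As deposited, the induced pair was nearly level for EXPA18 (78.2 and 81.2) and EXPA20 (84.4 and 84.7). It was far apart for EXLA1 (816 and 59.1) and EXLA3 (79.6 and 10.9). The SDs that follow are of normalized signals only. The median SD between the induced arrays was 0.64 on the log2 scale for the 21 members and 0.31 over all probe sets, and between the controls it was 0.38 and 0.26. The sign of the difference was the same within both replicates for 12 of the 21 members, and for 75% of all probe sets. In replicate 1, 8 members were lower on the induced array by 1 or more on the log2 scale (16.9% of all probe sets) and 3 were higher by as much (15.7%). In replicate 2, 5 were lower (13.9%) and 2 were higher (13.4%).

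EXLA1, XTH18 and XTH19 were brighter by 1 or more on the log2 scale on replicate 1 in both groups, which is 3 of 21 members, against 2.35% of all probe sets. As deposited, the ratio of replicate 1 to replicate 2 for EXLA1 was 3.37 in the controls and 13.8 in the induced pair. The same ratios were 3.76 and 5.93 for XTH18 and 4.21 and 5.04 for XTH19. No member was brighter by that much on replicate 2 in both groups, against 1.25% of all probe sets. Array controls were not normalized, so the spike signals that follow are as deposited. On that scale the array medians also differed, at 20 and 15.5 in the controls and 39.4 and 22.3 after induction. The poly-A spike RNA added to the samples differed by replicate too. Its geometric mean over 27 probe sets was 193.6 and 52.9 in the controls, compared with 120.6 and 56.9 after induction. The part of the spike and of array brightness in these differences was not tested. The hybridization spikes (18 probe sets) did not differ in this way, at 399.7 and 419.4 in the controls, compared with 501.5 and 393.9 after induction.

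**Figure D4:**
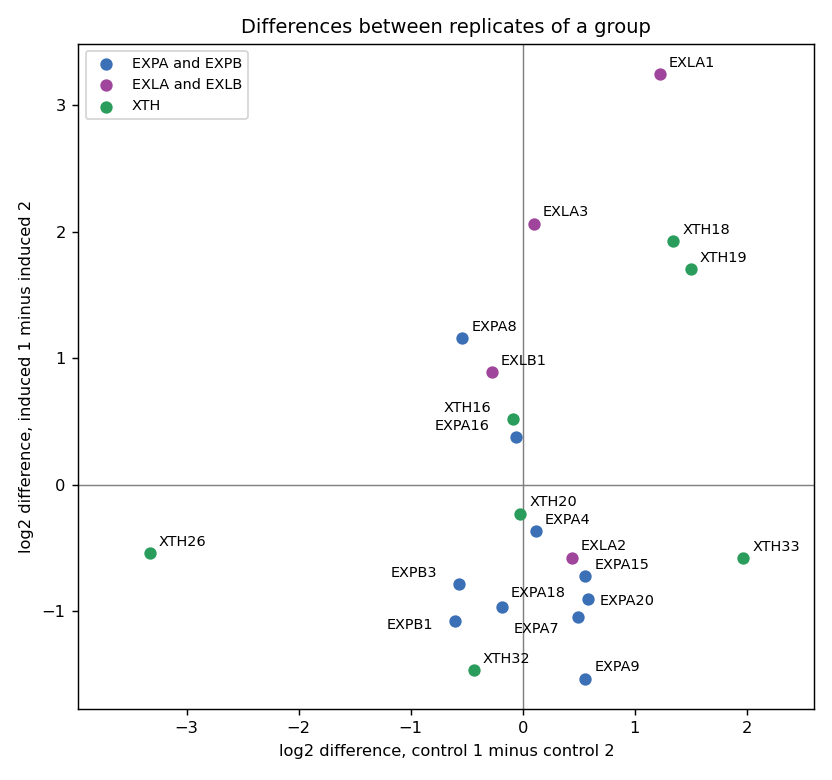
Log2 difference between replicate 1 and replicate 2 of the controls (horizontal) and of the induced seedlings (vertical) for the 21 members. XTH18, XTH19 and EXLA1 lie in the upper right, and EXPA9, EXPA7 and XTH32 have negative values on the vertical axis.

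The 6 members that did not pass the filter were dim on all 4 arrays, so no fold is given for them. EXPA21, EXPA24, EXPB2, EXPB5, XTH21 and XTH29 had normalized signals between 0.37 and 12.8. XTH21 came nearest to the limit, at 12.8 and 9.29 in the controls, compared with 6.86 and 6.30 after induction. Just inside the filter were EXPA16, XTH26 and XTH33, whose lowest signals were dim as well. EXPA21 and EXPA24 lie in 1 stretch of chromosome 5, with 4 protein-coding genes between them.

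Of 16 listed genes that make or trim xyloglucan, the substrate of XTHs, 4 had a probe set naming them alone. All 4 passed the filter and 1 changed, where 5.74% of all probe sets did. CSLC5 (AT4G31590), of the glucan synthase family that builds the xyloglucan backbone, rose 3.00-fold from 52.5 and 54.4 in controls to 151.5 and 169.4 in induced seedlings (log2 difference 1.58 ± 0.30 SE, limma adjusted p = 0.038). It no longer passed when control replicate 1 (limma adjusted p = 0.207) or control replicate 2 (0.206) was left out, or with a prior without a trend (0.0645). Of the other 3, CSLC04 was higher and CSLC6 and CSLC12 were lower, with limma adjusted p = 0.555, 0.759 and 0.601 and overlapping groups. As deposited, CSLC6 and CSLC12 were higher in induced seedlings instead, and under median centring CSLC04 was lower.

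Gibberellin and brassinosteroid promote wall loosening and expansin expression in many tissues. Of 51 listed genes of these hormones, 4 had a probe set naming them alone. In limma 0 of the 4 changed, against 5.74% of all probe sets. An unadjusted p under 0.05 was reached by 2 of the 4, against 26.5% of all probe sets. All 4 are gibberellin genes. No listed brassinosteroid gene had a probe set naming it alone, which does not show that the arrays lack such genes. Their means were lower in induced seedlings, with a median log2 difference of -0.58, although SLY1 and GID1C were higher as deposited. For GID1C both group means were dim, at 13.2 in controls and 11.7 after induction, and the groups overlapped (log2 difference -0.17 ± 0.89 SE). GID1B (AT3G63010), a gibberellin receptor, had 170.2 and 73.6 in the controls, compared with 30.0 and 31.3 after induction, and did not pass (log2 difference -1.87 ± 0.45 SE, limma adjusted p = 0.0648). It passed under median centring (0.0458) and without LEC1 induced replicate 2 (0.0467), and did not with any other array left out (0.061 to 0.234). Of 24 listed pectin enzyme genes, ADPG1 and PME61 had a probe set naming them alone, and both were dim on all 4 arrays. From the list of structural wall proteins by symbol, only PRP39 and PRP39-2 had a probe set naming them alone. They encode homologues of a pre-mRNA processing factor, so no structural wall protein could be followed by symbol.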

How the data were processed

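Whole-seedling RNA was measured on 4 ATH1 arrays. The authors deposited 1 linear intensity per probe set and array, computed with MAS5 per the submitters' processing notes. Its scaling target was not given in the sources used here, nor were detection calls. Of 22810 probe sets, 64 array controls were left out. Signals under 0.1 (8 values) were set to 0.1, log2 transformed and quantile normalized. The filter required a signal over the array's own 40th percentile on at least 2 arrays (14433 of 22746 kept). All kept probe sets were fitted in limma (version 3.58.1, R 4.3.3) by lmFit and eBayes with a trended prior. Tests were two-sided and adjusted after Benjamini-Hochberg, with a threshold of 0.05. With 2 residual and 4.39 prior degrees of freedom, the number of arrays limits the precision, and an exact permutation test could not go below 0.333. Intervals are limma's, unadjusted. The fit was also run on simulated data, but only with changes larger than the difference of any member. That run therefore says nothing about differences of the size seen here.

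Where an array of the dimmer group was dim, a fold is a bound, with that group's signals set to at least the limit. Gene names come from a platform annotation and the TAIR10.1 gene table (13436 of 13513 matched). The deposited table names no build, so coordinates are not given, and sequences are not used here. Full statistics went to EXPA7, EXPA18, called members, the 10 other bright members with the largest differences, and called or brightest list members. Other genes were named after their values were seen. Members and lists were chosen with earlier results of these data known. Alternatives were the scaling, the filter, an offset, the variance prior, the replicate number as a block, leaving out each array, and the methods' t-test. That t-test assumed equal variance, used the quantile normalized and filtered log2 values, and was read at a false discovery rate of 0.2.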

Additional observations from a re-analysis of the deposited data

How the results depend on the processing

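The count of members past the threshold was 0 and stayed 0 on the values as deposited, without the filter, with the stricter filter, with a prior without a trend and in the methods' t-test. It was 2 under median centring, 1 with an offset of 16 (where 7.93% of all probe sets passed) and 1 with a robust prior (6.68%), and 0 to 6 when 1 array was left out. Over all probe sets the 828 calls became 1409 (9.76%) under median centring, 381 with a prior without a trend, 396 in the methods' t-test and 136 to 1935 with 1 array left out. Higher and lower calls were 408 and 420, 494 and 97 as deposited, and 447 and 962 under median centring, where the median shifted by -0.14. With the replicate block, 3 members (EXPA18, EXPB1 and XTH32) and 2583 probe sets (17.9%) passed, as did SCN1 (limma adjusted p = 0.0249) and GID1B (0.0176). Same-numbered arrays deviated together (correlation 0.311 across probe sets), but with 2 pairs this does not show that the numbers pair the samples.

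Direction turned for EXPA4 (-0.19) and XTH18 (-0.32) under median centring and for XTH33 (0.35) and EXGT-A3 (0.10) as deposited. With 1 array left out, log2 differences ranged from -0.93 to 2.31 for EXLA1, -1.85 to 0.22 for EXLA3, -0.024 to 0.35 for EXPA4, -0.13 to 1.03 for EXPA8, -0.077 to 0.44 for XTH16, -0.93 to 0.99 for XTH18, -0.30 to 1.40 for XTH19, -0.18 to 3.15 for XTH26, -1.26 to 0.70 for XTH33 and -0.032 to 0.97 for JKD. The cause was not tested in any of these cases. EXPA7, EXPA9, EXPA18, EXPA20, EXLA2, EXLB1, XTH20 and XTH32 were lower, and EXPB1, EXPB3 and EXPA15 higher, under every alternative run. EXPA16 did not pass the stricter filter and was lower under every other alternative.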

Other observations

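Further family members are on the arrays under other symbols. EXGT-A3 (AT2G01850), listed as XTH27 among the synonyms of the gene table, had normalized signals of 160.9 and 230.6 in the controls, compared with 182.4 and 123.3 after induction. Its groups overlapped, and the log2 difference was -0.36 ± 0.36 SE (limma adjusted p = 0.56). AT4G30380, listed as EXLB2, was dim on all 4 arrays and did not pass the filter.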
